A study of Schizosaccharomyces pombe with 28 samples.

Results

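The interaction of the zfs1 and cbf12 deletions in the fission yeast Schizosaccharomyces pombe was measured as the amount by which the effect of deleting zfs1 on a transcript differed between cells without and with Cbf12. For each gene it was computed on the log2 scale as the double null minus the cbf12-null strain, less the zfs1-null strain minus wild type (WT). It used 12 of the 28 arrays of the series, those of project 582, and all 2899 S. pombe genes that the arrays' gene table named, with the brightest probe set of each gene. A positive interaction means that the double null lay above the level that the log2 effects of both deletions would give if they added, and a negative one that it lay below. The strains were the double null lacking both genes (zfs1∆cbf12∆), the zfs1-null strain, the cbf12-null strain and WT, with 3 arrays each. All were grown untreated in rich YES medium at the same temperature, and polyA RNA was taken in mid-log growth. The other 16 arrays compared zfs1-null with WT cells in project 488, with 3 arrays of each, and in project 529, with 5 of each. The sources used here give no mating type, no marker alleles and no derivation of the strains. The samples are described as biological replicates, without a statement that each had its own culture, so p-values measure the spread between these samples, which may be partly technical.

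Zfs1 is the fission yeast member of the tristetraprolin family, CCCH zinc finger proteins that bring mRNAs carrying AU-rich elements to the deadenylation and decay machinery. Cbf12 belongs to the CSL family of DNA-binding transcription factors, known from Notch signalling in animals, and in fission yeast it promotes cell adhesion and flocculation, the clumping of cells through surface glycoproteins called flocculins. A comparison of the zfs1 effect in both cbf12 backgrounds asks which zfs1-dependent transcript levels also depend on Cbf12.

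The deleted genes matched the strain labels. The zfs1 signal was 1.91, 7.22 and 0.319 in the double null, 7.70, 3.45 and 4.03 in zfs1-null cells, 630, 623 and 548 in cbf12-null cells and 426, 576 and 554 in WT. The cbf12 signal was 0.142, 0.173 and 0.604 in the double null, 485, 497 and 411 in zfs1-null cells, 0.273, 0.67 and 0.257 in cbf12-null cells and 188, 170 and 195 in WT. Every array of a strain that kept a gene lay far above every array of a strain that lacked it. In the strains that lacked the gene, cbf12 was below background on all arrays, and zfs1 was near or below it. The interaction estimates of zfs1 and cbf12 rest on such arrays and are not interpreted. Background was set at percentile 95 of the probe sets for other species, 3.83 to 5.44 signal units, which 2896 to 2899 genes exceeded per array. The SD between a strain's arrays had a median over genes of 0.138 log2 units in the double null, 0.078 in zfs1-null cells, 0.083 in cbf12-null cells and 0.102 in WT.

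The effects of both deletions did not add for 283 of 2899 genes (9.76%, limma, Benjamini-Hochberg adjusted p below 0.05). The double null lay below the additive level for 156 of them and above it for 127. The lower interactions were larger. Among called genes their median was -0.77 on the log2 scale, against 0.56 for the higher ones and 0.05 over all genes tested, and 55 lower but 9 higher genes differed at least 2-fold from additivity. The signs of all 283 were the same when the interaction was taken on the linear scale of the signals. With array medians set equal the split was 99 higher and 186 lower, so the share of higher calls was 34.7% against 44.9%. Without the genes of lowest mean signal the split was 100 higher and 93 lower (51.8% higher). Leaving out 1 array at a time gave 193 to 366 calls, and 61 of the higher and 108 of the lower genes were called in each of these 12 fits. The number of higher calls was 191 without replicate 2 of the double null, between 71 and 77 without zfs1-null replicate 2, zfs1-null replicate 3 or cbf12-null replicate 3, and 87 without WT replicate 2 or without cbf12-null replicate 1.

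For 180 of the 283 genes the zfs1 effect was called in cells without Cbf12 and not in cells with it. Deleting zfs1 changed 980 genes (33.8%; 18.8% higher and 15% lower) in cells without Cbf12 and 327 (11.3%; 4.14% higher and 7.14% lower) in cells with it. Of the 156 lower genes, 107 had a called zfs1 effect only without Cbf12, 34 in both backgrounds with the same sign, 9 in both with opposite signs, 5 only with Cbf12, and 1 in neither. Of the 127 higher genes the same counts were 73, 6, 15, 28 and 5. These sortings use the same arrays as the interaction and are a description. Read from the other side, 121 of the 156 lower genes rose on cbf12 deletion in cells with Zfs1 (9.18% of all genes did), and in cells without Zfs1 93 of these 121 did not pass, 23 fell and 5 rose (5.76% of all genes fell and 3.24% rose there). Of the 127 higher genes 107 fell on cbf12 deletion in cells with Zfs1 (18.9% of all genes did), and without Zfs1 92 of these 107 did not pass, 10 fell and 5 rose. These counts depend on the scaling. With array medians set equal 131 of the 156 lower genes rose (15% of all genes) and 81 of the 127 higher genes fell (9.38% of all genes). Over all genes the cbf12 effect with Zfs1 was then called higher for 434 and lower for 272, against 266 and 549 with the deposited scaling.

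**Figure D1:**
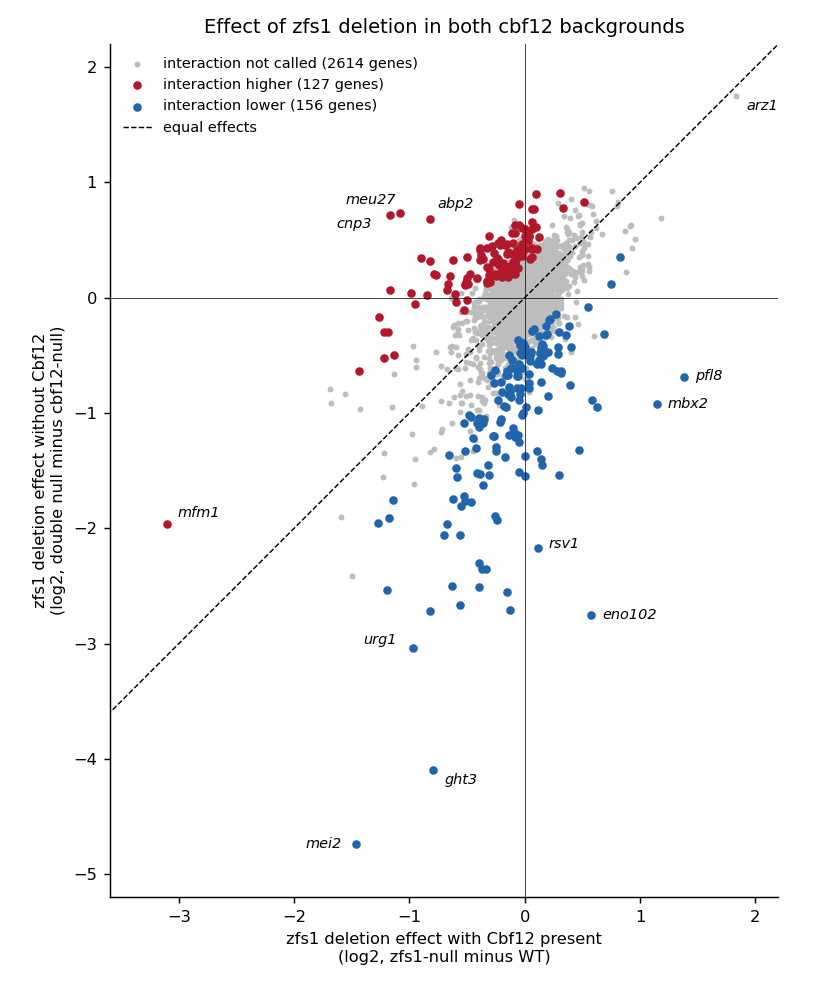
Each point is 1 gene, with its log2 zfs1 effect in cells without Cbf12 on the vertical axis and in cells with Cbf12 on the horizontal axis. The 156 genes with a lower interaction (blue) lie below the line of equal effects, the 127 with a higher one (red) above it, and arz1 lies on it; zfs1 and cbf12 themselves are left out.

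A sort of the 283 genes by the strain farthest from the other 3, made after the values were seen, gave 2 main shapes. For 106 of the 156 lower genes the cbf12-null strain stood highest, and for 39 the double null stood lowest. For 66 of the 127 higher genes the cbf12-null strain stood lowest, and for 38 WT stood highest. Of the other 11 lower genes, 7 had a low WT and 4 a high zfs1-null strain. In 100 of the higher genes both single nulls lay below WT, and in 75 of these the double null lay below WT as well. The interaction adds WT and subtracts both single nulls, so choosing genes by its sign itself favours such shapes. No share over all genes was taken for them, and they are a description from the same arrays.

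The flocculation genes held 2 of the largest lower interactions. Among the 3 measured flocculins and adhesins, pfl8 (SPAC1F8.06), of the flocculin family, had signals of 146, 209 and 247 in the double null, 784, 801 and 713 in zfs1-null cells, 325, 305 and 317 in cbf12-null cells and 267, 286 and 334 in WT. All 3 zfs1-null arrays were high, and all 3 double-null arrays lay below every array of the other strains. Zfs1 deletion raised pfl8 by 1.38 log2 units with Cbf12 and lowered it by 0.69 without, an interaction of -2.07 ± 0.22 (SE, adjusted p = 1e-05, limma). The additive level would have been 821 signal units, and the double null measured 196 (geometric means). The agglutinins of mating cells, map4 of P cells (0.34, 95% interval -0.07 to 0.75) and mam3 of M cells (0.07, -0.46 to 0.59), did not pass.

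Of 16 measured flocculation regulators besides the deleted cbf12, mbx2 was lower than additive, mbx1 was higher, and 14 did not pass. Their median interaction was 0.003, against 0.05 over all genes. The MADS-box transcription factor mbx2 (SPBC317.01), an activator of flocculin genes, had signals of 870, 1073 and 934 in the double null, 1534, 1616 and 1572 in zfs1-null cells, 1865, 1744 and 1839 in cbf12-null cells and 909, 694 and 570 in WT. Either deletion alone raised mbx2, by 1.15 for zfs1 and 1.35 for cbf12 on the log2 scale, whereas the double-null arrays overlapped WT. Its interaction was -2.07 ± 0.18 (SE, adjusted p = 6.81e-07, limma), with 956 units measured against 4018 if the effects had added. The related MADS-box gene mbx1 (SPBC19G7.06), which acts in cell cycle transcription at the end of mitosis, went the other way. Its signals were 1180, 1434 and 1233 in the double null, 1110, 1183 and 1103 in zfs1-null cells, 889, 923 and 839 in cbf12-null cells and 1367, 1473 and 1371 in WT, with an interaction of 0.84 ± 0.12 (SE, adjusted p = 0.000146, limma). Here only the cbf12-null arrays stood wholly apart, below the rest. The paralogous CSL factor cbf11 (0.25, 95% interval -0.03 to 0.53) and the corepressors tup11 (-0.05, -0.28 to 0.18) and tup12 (-0.03, -0.27 to 0.20) did not pass.

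**Figure D2:**
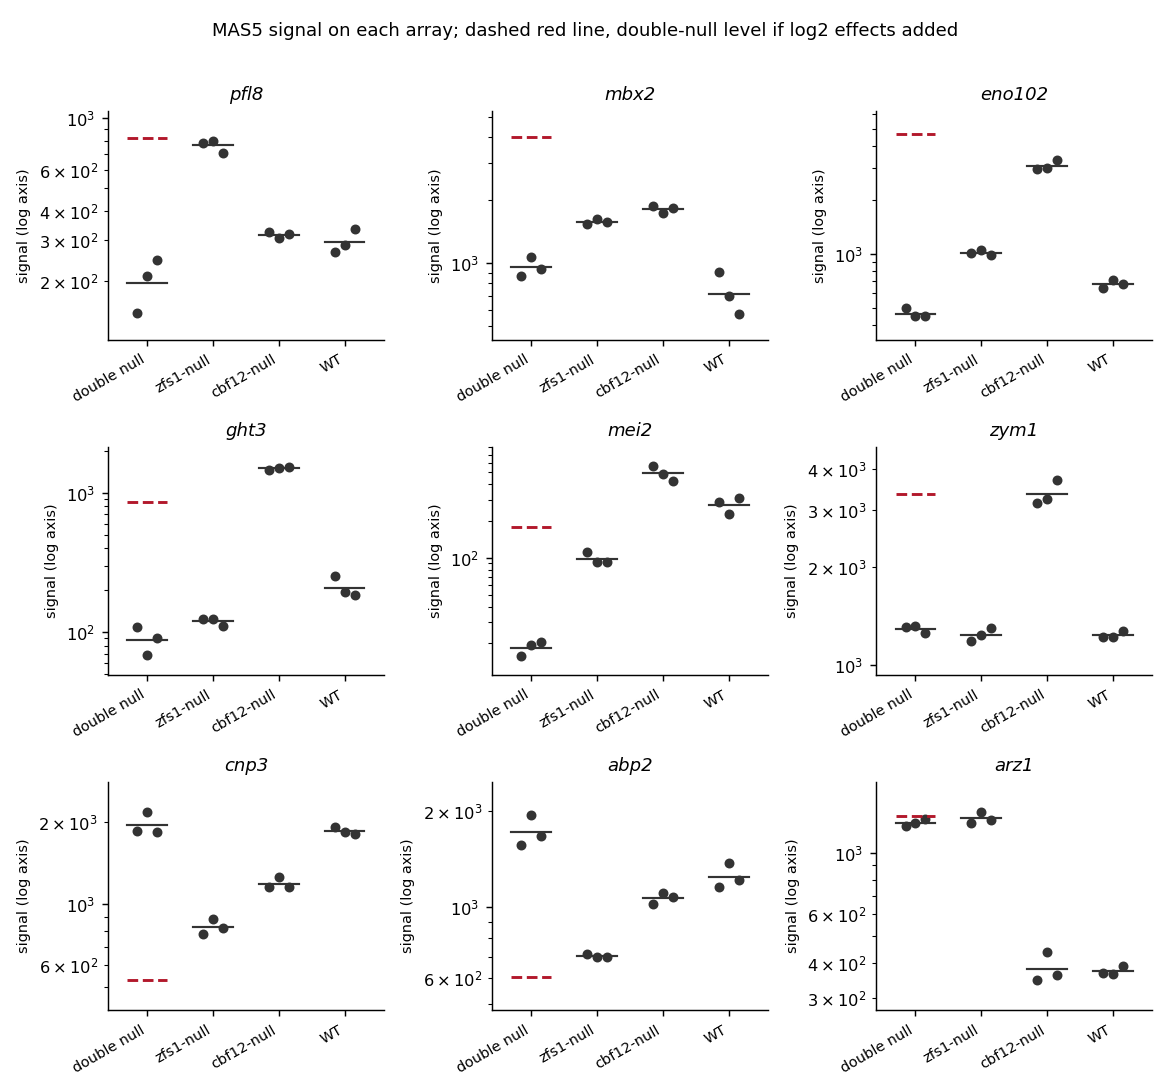
Deposited signals on a log axis for 9 genes, with 1 point per array, a bar at the geometric mean of each strain's 3 arrays, and a dashed red line at the double-null level that additive log2 effects would give. The double-null points lie below the dashed line for pfl8, mbx2, eno102, ght3, mei2 and zym1, above it for cnp3 and abp2, and at it for arz1.

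Genes of glucose repression and of other carbon sources were the list with the lowest median. Of 20 measured members 12 had a lower interaction and none a higher one, with a median of -0.76 against 0.05 over all genes, of which 5.38% were called lower. The hexose transporter ght3 (SPAC1F8.01) had signals of 109, 68.9 and 90.1 in the double null, 125, 125 and 111 in zfs1-null cells, 1452, 1515 and 1538 in cbf12-null cells and 251, 194 and 185 in WT. The cbf12-null strain stood far above the rest, and the double null lay below all of them. The interaction of ght3 was -3.30 ± 0.23 (SE, adjusted p = 7.4e-08, limma), with 87.8 units measured against 867 on addition. The alpha-galactosidase gene mel1 (SPAC869.07c) had signals of 236, 172 and 189 in the double null, 184, 220 and 175 in zfs1-null cells, 1087, 1154 and 1233 in cbf12-null cells and 225, 208 and 207 in WT, an interaction of -2.40 ± 0.18 (adjusted p = 2.26e-07, limma). Its rise on cbf12 deletion was seen only where Zfs1 was present, and the other 3 strains overlapped.

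Other carbon genes had their lowest level in the double null. The transporter gene ght1 (SPCC548.07c) had signals of 73.8, 79.2 and 85.7 in the double null, 406, 403 and 364 in zfs1-null cells, 464, 546 and 509 in cbf12-null cells and 588, 507 and 645 in WT. Every array of the other strains lay at 364 units or above, and the interaction was -2.10 ± 0.17 (SE, adjusted p = 3.81e-07, limma). The same shape held for rsv1 (SPBP4H10.09), a zinc finger factor needed for survival without glucose, with 93.8, 64.9 and 79.4 in the double null, 279, 268 and 263 in zfs1-null cells, 354, 343 and 361 in cbf12-null cells and 248, 263 and 241 in WT (interaction -2.28 ± 0.19 SE, adjusted p = 4.37e-07, limma). The invertase gene inv1 (SPCC191.11) had 406, 261 and 412 in the double null against at least 924 on every array of the other strains (interaction -1.84). The remaining lower members were the glycerol dehydrogenase gene gld1 (-1.25), fbp1, the fructose bisphosphatase of gluconeogenesis (-0.97), the dihydroxyacetone kinase genes dak2 (-1.34) and dak1 (-0.58), galactokinase gal1 (-0.53), ght4 (-1.30) and aes1 (-0.67). Of the 8 hexose transporters 4 were lower than additive (5.38% of all genes were), the fourth being ght5 (-0.52), a high-affinity glucose transporter.

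The gene with the largest interaction was eno102 (SPBPB21E7.01c), an enolase paralog. Its signals were 496, 447 and 446 in the double null, 1011, 1049 and 979 in zfs1-null cells, 2970, 3030 and 3344 in cbf12-null cells and 646, 717 and 674 in WT. Both single nulls lay above WT and the double null below it. The interaction was -3.33 ± 0.11 (SE, adjusted p = 1.07e-11, limma), with 462 units measured against 4640 on addition. It was the only one of 13 glycolysis and fermentation genes to be called, and the median of that list was -0.16. In glucose sensing through cAMP, 2 of 14 genes were lower, against 5.38% of all genes. They were the G protein alpha subunit gpa2 (-1.20, adjusted p = 0.0115) and the kinase subunit pka1 (-0.68, adjusted p = 0.0252, limma). The call of pka1 was lost without any 1 of 4 arrays (adjusted p 0.0528 to 0.0689).

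**Figure D3:**
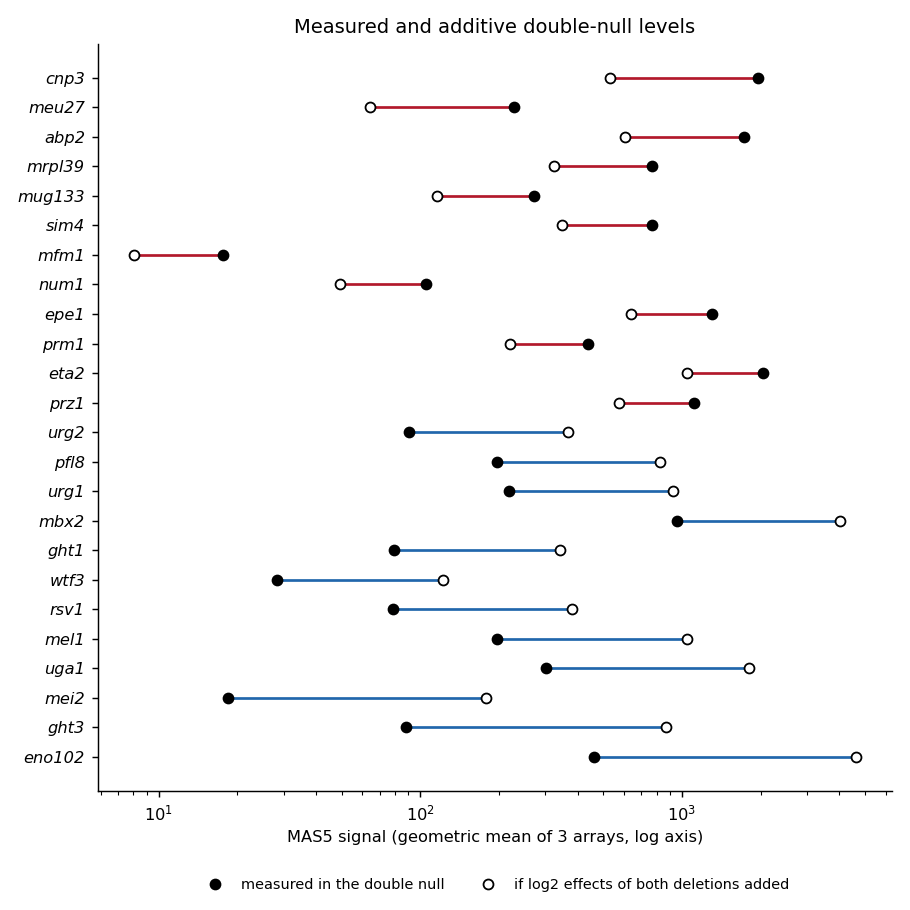
Double-null level measured (filled) and double-null level if the log2 effects of both deletions had added (open), on a log axis, for the 12 genes with the largest higher (red) and the 12 with the largest lower (blue) interactions. For eno102 the measured level is 462 and the additive one 4640, and for cnp3 they are 1950 and 529.

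Stress genes were mostly highest in the cbf12-null strain. Of 26 measured core stress genes, 18 rose and none fell on cbf12 deletion with Zfs1 (9.18% and 18.9% of all genes), whereas 8 rose and 1 fell without Zfs1 (3.24% and 5.76% of all genes). The interaction was lower for 9 and higher for none (5.38% and 4.38% of all genes), with a median of -0.26. The metallothionein gene zym1 (SPAC22H10.13) had signals of 1309, 1325 and 1257 in the double null, 1187, 1237 and 1301 in zfs1-null cells, 3157, 3237 and 3703 in cbf12-null cells and 1225, 1220 and 1274 in WT. Only the cbf12-null strain was high, and the double null overlapped WT and zfs1-null cells (interaction -1.38 ± 0.10 SE, adjusted p = 1.64e-07, limma). The hexitol dehydrogenase gene tms1 (SPBC1773.05c) had 370, 408 and 444 in the double null, 506, 507 and 572 in zfs1-null cells, 2078, 1809 and 2154 in cbf12-null cells and 756, 643 and 692 in WT, an interaction of -1.91 ± 0.14 (SE, adjusted p = 1.72e-07, limma).

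Some members also rose on cbf12 deletion in cells without Zfs1. The glutathione transferase gene gst2 (SPCC965.07c) had 974, 1298 and 1213 in the double null, 296, 315 and 261 in zfs1-null cells, 3542, 3074 and 3387 in cbf12-null cells and 315, 411 and 421 in WT, so cbf12 deletion raised it by 1.99 log2 units without Zfs1 and by 3.13 with it (interaction -1.14, adjusted p = 0.000484, limma). The sulfiredoxin gene srx1 (-1.36) and the pyridoxal reductase gene plr1 (-0.80) likewise rose in both backgrounds, and less so without Zfs1. The other lower members were the trehalose genes ntp1 (-0.65) and tps1 (-0.48), sro1 (-0.88) and atf1 (-0.57), the bZIP transcription factor of the stress MAP kinase Sty1. The call of atf1 was lost without zfs1-null replicate 3 (adjusted p = 0.0525), and atf1 was also the only 1 of 17 Sty1 pathway genes called.

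Genes for the use of nitrogen and amino acids were mostly lower where called. Of 25 measured members 8 were lower and 2 higher (5.38% and 4.38% of all genes), with a median of -0.22. The GABA transaminase gene uga1 (SPAC19D5.07) had signals of 323, 268 and 321 in the double null, 371, 371 and 356 in zfs1-null cells, 1821, 2027 and 2090 in cbf12-null cells and 326, 449 and 437 in WT (interaction -2.58 ± 0.17 SE, adjusted p = 7.4e-08, limma). All 3 cbf12-null arrays were high, and the double null lay just below zfs1-null cells and WT. The arginase gene car1 (-1.54), the subtilase gene isp6 (-1.46) and the glutamate dehydrogenase gene gdh2 (-1.25) had the same shape, with the cbf12-null strain highest. The oligopeptide transporter gene isp4 (-0.97) and isp7 (-0.93) instead were lowest in the double null, and the permease genes per1 (-1.08) and cat1 (-0.48) completed the lower members. The higher members were amt3 (0.69), an ammonium transporter, and the amino acid permease isp5 (0.70), whose call was lost without any 1 of 10 arrays (adjusted p 0.0637 to 0.116).

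The clustered uracil-regulated genes urg1 (SPAC1002.19) and urg2 (SPAC1002.17c) showed opposite effects of cbf12 deletion in both zfs1 backgrounds. The urg1 signals were 243, 206 and 210 in the double null, 494, 534 and 517 in zfs1-null cells, 1803, 1844 and 1752 in cbf12-null cells and 934, 1067 and 1020 in WT. Cbf12 deletion lowered urg1 by 1.23 log2 units without Zfs1 and raised it by 0.84 with Zfs1, and no strain overlapped another (interaction -2.07 ± 0.13 SE, adjusted p = 3.09e-08, limma). For urg2 the interaction was -2.02 ± 0.21, with cbf12 effects of -1.40 without and 0.61 with Zfs1. The gene between them, urg3, was lower as well (-0.69).

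Genes of sexual differentiation moved in both directions. The largest was mei2 (SPAC27D7.03c), whose RNA-binding protein switches cells into meiosis. Its signals were 15.8, 19.2 and 20.4 in the double null, 111, 91.9 and 92.6 in zfs1-null cells, 567, 485 and 429 in cbf12-null cells and 285, 227 and 307 in WT. No strain overlapped another, and cbf12 deletion was followed by a higher mei2 level with Zfs1 and a lower one without (interaction -3.28 ± 0.23 SE, adjusted p = 1e-07, limma). Of 40 meiosis and sporulation genes 5 were lower and 4 higher (5.38% and 4.38% of all genes), with a median of 0.02. Besides mei2 the recombination gene rec7 (-1.08) was lower, while dmc1 (0.65) and meu13 (0.64), both of meiotic recombination, were higher. With the zfs1 effect taken from projects 488 and 529 meu13 had the opposite sign (-0.31, adjusted p = 0.0488, limma). The meiotic activator mfr1 (-0.96) lost its call without any 1 of 8 arrays (adjusted p up to 0.111) and meu10 (0.81) without any 1 of 5 (adjusted p up to 0.0614). With projects 488 and 529 meu10 was at -0.415 (adjusted p = 0.0486, limma), also the opposite sign. Of 109 genes named mug or meu for induction in meiosis, 13 were higher and 13 lower (4.38% and 5.38% of all genes), and their median was -0.02.

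Of 29 mating and pheromone genes 3 were lower and 2 higher (5.38% and 4.38% of all genes), with a median of -0.16. The MAP kinase cascade adaptor ste4 (SPAC1565.04c) had signals of 347, 299 and 348 in the double null, 948, 813 and 786 in zfs1-null cells, 813, 932 and 815 in cbf12-null cells and 1382, 1315 and 1318 in WT. Each deletion alone lowered ste4, by 0.66 for zfs1 and 0.65 for cbf12, and the double null lay below both (interaction -0.71 ± 0.14 SE, adjusted p = 0.00315, limma). The P-cell transcription factor map1 (SPAC11E3.06) also was lowest in the double null (-1.28), and isp6 was the other lower member. The higher ones were ste6 (0.89), the exchange factor of Ras, and mfm1 (1.14), which encodes a precursor of the M-factor pheromone. Neither was called with the zfs1 effect of projects 488 and 529, where ste6 was at 0.21 (adjusted p = 0.228) and mfm1 had the opposite sign (-0.70, adjusted p = 0.0659), and mfm1 was not called with probe sets of both species tested (adjusted p = 0.109, limma).

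Of 4 pheromone genes mfm1 was the one called. The mfm1 signals were 16.5, 16.1 and 20.8 in the double null, 14.9, 10.5 and 13.3 in zfs1-null cells, 63.9, 66.2 and 77.4 in cbf12-null cells and 113, 99 and 118 in WT. For the other 2 M-factor genes the interaction was 0.46 (mfm2, adjusted p = 0.0608) and -0.26 (mfm3, adjusted p = 0.318), and for the P-factor gene map2 it was 0.51 (adjusted p = 0.235, limma). In whole cultures, fewer cells that express a gene and less of its RNA per cell cannot be told apart.

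Genes from subtelomeric clones, near chromosome ends, and the wtf family were among the lowest lists. Over all genes 5.38% were called lower and 4.38% higher. Of 32 genes from subtelomeric clones 15 were lower and none higher (median -0.55), among them ght3, eno102, mel1, pfl8 and dak2 named above, and gmh1 (-1.87) and the helicase gene tlh2 (-1.55). Of 16 wtf genes, a family that includes meiotic drivers, 9 were lower and none higher (median -0.66), led by wtf3 (SPCC548.02c) at -2.11 ± 0.33 (SE, adjusted p = 0.000503, limma). The wtf3 signals were 26.2, 34.6 and 24.8 in the double null, 43.4, 33.1 and 29 in zfs1-null cells, 153, 190 and 142 in cbf12-null cells and 33.2, 44.5 and 64.1 in WT. The lower genes ght3, ght4, mel1, gal1, dak2 and aes1 of the subtelomeric clones are also on the glucose-repressed list, so these 2 lists are not separate. Where genes of these lists have close copies, their probe sets may detect each other's transcripts, so the counts are uncertain as counts of separate genes.

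The largest higher interaction was that of a centromere gene. Of 43 measured genes on the centromere and kinetochore list 5 were higher and none lower, and 4.38% of all genes were called higher. The list median was 0.13 against 0.05 over all genes. These 5 include abp2, whose protein is described below as binding replication origins, so not all of them are kinetochore genes. The CENP-C gene cnp3 (SPBC1861.01c), a foundation of the kinetochore, had signals of 1859, 2174 and 1835 in the double null, 782, 881 and 817 in zfs1-null cells, 1153, 1255 and 1159 in cbf12-null cells and 1921, 1844 and 1800 in WT. Both single nulls lay below WT, and the double null overlapped it. The interaction was 1.88 ± 0.11 (SE, adjusted p = 3.09e-08, limma), with 1950 units measured against 529 on addition. Its chromosomal neighbour abp2 (SPBC1861.02), for a protein that binds replication origins, had 1570, 1942 and 1672 in the double null, 717, 699 and 701 in zfs1-null cells, 1025, 1110 and 1078 in cbf12-null cells and 1158, 1376 and 1214 in WT (interaction 1.51 ± 0.12 SE, adjusted p = 4.63e-07, limma). The double null was the highest strain for abp2, and whether the signals of these neighbours come from separate transcripts was not tested.

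The other 3 were smaller. The kinetochore gene sim4 (SPBC18E5.03c) had signals of 826, 756 and 733 in the double null, 722, 637 and 665 in zfs1-null cells, 614, 625 and 611 in cbf12-null cells and 1607, 1109 and 951 in WT. WT was high and variable there, and the 3 mutant strains lay within a narrower range below it (interaction 1.15, adjusted p = 0.00111). The CENP-X gene mhf2 was at 0.51 (adjusted p = 0.00617). The GATA factor gene ams2, which acts in centromere assembly and histone transcription, was at 0.65 (adjusted p = 0.0355, limma), and its call was lost without any 1 of 7 arrays (adjusted p up to 0.104).

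Further large higher interactions came from genes with several roles. They were meu27 (1.82), the mitochondrial ribosomal gene mrpl39 (1.24), mug133 (1.23), num1 (1.09), which anchors dynein at the cell cortex in meiosis, the JmjC gene epe1 (1.03), which limits heterochromatin, the cell fusion gene prm1 (0.99), eta2 (0.97) and the calcineurin-responsive transcription factor prz1 (0.95). The epe1 signals were 1428, 1254 and 1238 in the double null, 787, 753 and 749 in zfs1-null cells, 1333, 1320 and 1153 in cbf12-null cells and 1603, 1436 and 1494 in WT. The zfs1-null strain alone was low. The num1 signals were 97, 114 and 105 in the double null, 162, 181 and 119 in zfs1-null cells, 118, 125 and 112 in cbf12-null cells and 376, 339 and 380 in WT. There all 3 mutant strains were low and WT was high. The call of eta2 was lost without any 1 of 5 arrays (adjusted p up to 0.0699).

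**Figure D4:**
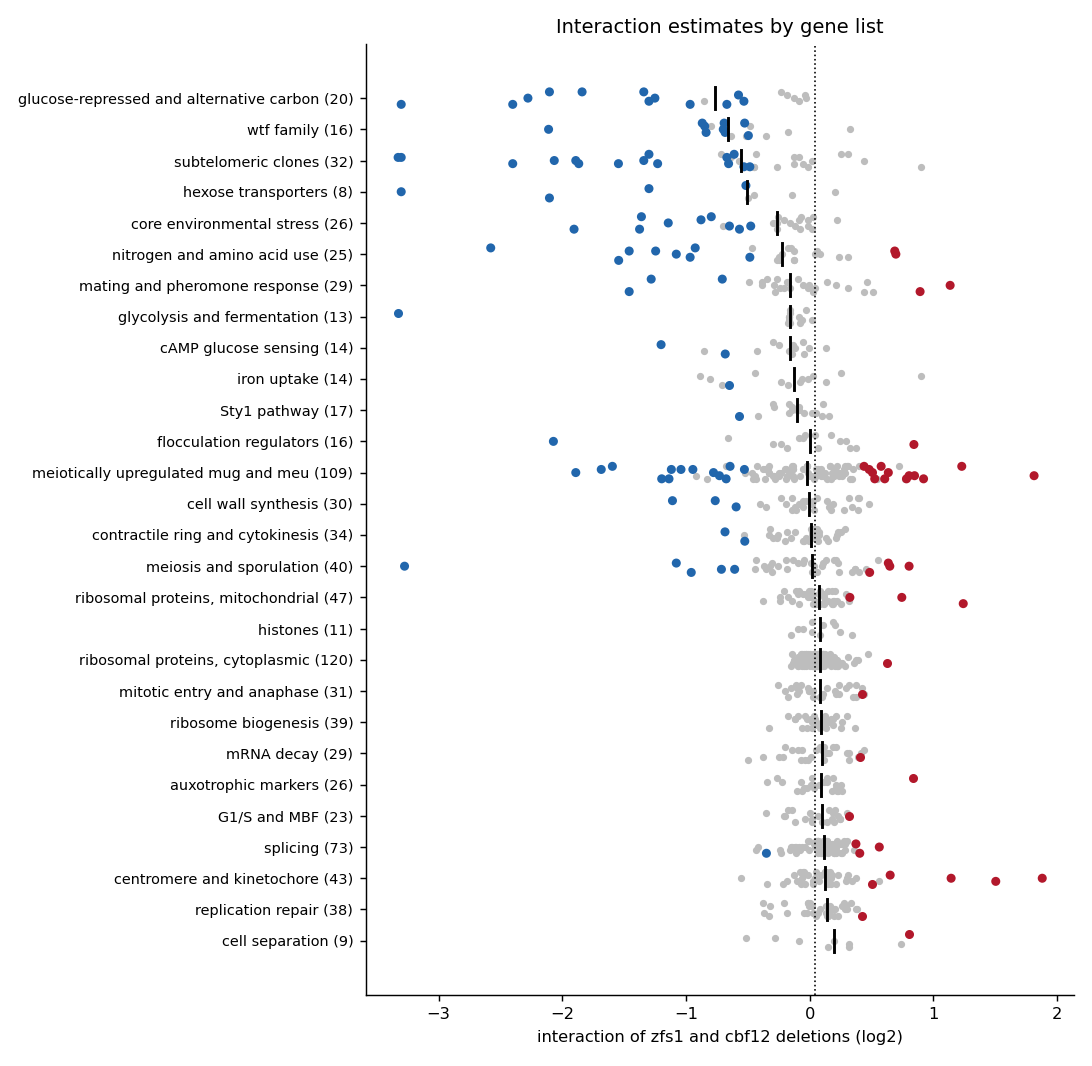
Interaction estimates (log2) of the measured members of the gene lists with 8 or more measured genes, called members in blue (lower) or red (higher), list medians as black bars, and the median of all genes as a dotted line; the number plotted stands beside each list, and the deleted gene cbf12 is left out. Glucose-repressed genes, the wtf family, subtelomeric clones and hexose transporters have medians of -0.76, -0.66, -0.55 and -0.51.

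Apart from the centromere and kinetochore list described above, no list of growth and division machinery held more than 3 genes called in 1 direction. Over all genes 4.38% were called higher and 5.38% lower. In the direction of their calls, the mitochondrial ribosomal, cytokinesis and cell separation lists were not below these shares. Of 120 cytoplasmic ribosomal protein genes 1 was higher and none lower (median 0.08), a call lost without any 1 of 9 arrays, of 39 ribosome biogenesis genes and 11 histone genes none was called, and of 73 splicing genes 3 were higher and 1 lower (median 0.12). These 4 splicing calls were all lost without WT replicate 2 (adjusted p 0.0537 to 0.116). Of 47 mitochondrial ribosomal genes 3 were higher and none lower (median 0.07), and the call of mrps28 among them was lost without any 1 of 8 arrays (adjusted p up to 0.0945). Single calls on the higher side were the cyclin gene cig2 (0.32) among 23 G1/S genes, the spindle gene ase1 (0.42) among 31 mitosis genes and rmi1 (0.42) among 38 replication repair genes, and each was lost without any 1 of at least 5 arrays (adjusted p up to 0.133). Of 34 cytokinesis genes rng3 (-0.52) and cyk3 (-0.68) were lower, each a call lost without any 1 of 8 arrays (adjusted p up to 0.0824). Of 14 iron uptake genes abc3 was lower (-0.66), and of 3 eisosome genes none was called. Of 29 mRNA decay genes besides the deleted zfs1 only lsm4 was called (0.41), and its call was lost without any 1 of 4 arrays (adjusted p up to 0.067). Of 9 cell separation genes the endo-glucanase eng1 was higher (0.80), a call that was lost without cbf12-null replicate 3 (adjusted p = 0.0504). The uracil synthesis gene ura4, 1 of 26 auxotrophic marker genes, was also higher (0.84), with signals of 1548, 1707 and 1529 in zfs1-null cells and at least 2181 on every array of the other strains.

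The zfs1 effect in cells with Cbf12 was also measured on the 16 arrays of projects 488 and 529. With it in place of the zfs1 effect of project 582, and the cbf12-null and double-null arrays unchanged, 607 genes were called (20.9%), 291 higher and 316 lower. All 156 lower genes kept their sign and 143 of them were called lower. Of the 127 higher genes 122 kept their sign and 69 were called higher. As 6 of the arrays are shared, these counts are not independent of the first estimate. Calls rose over all genes, to 10.9% lower and 10% higher, against 5.38% and 4.38% before, so larger list counts are to be read against these shares. Called lower were 14 of 20 glucose-repressed genes, 6 of 8 hexose transporters, 11 of 26 core stress genes, 12 of 16 wtf genes, 17 of 32 genes of subtelomeric clones and 11 of 29 mating genes. Called higher were 1 glucose-repressed gene, 1 hexose transporter, 2 core stress genes, 1 wtf gene, 1 gene of subtelomeric clones and no mating gene. Of the 43 genes on the centromere list 3 were lower and 5 higher, abp2 among the higher ones. These 5 were not the same as before, as sim4 and ams2 did not pass. Lists with few or balanced calls in project 582 also changed. Of 120 cytoplasmic ribosomal protein genes 27 were now higher and none lower, and of 26 auxotrophic marker genes 7 and none. Of 30 mRNA decay genes, zfs1 included, 6 were higher and 2 lower. Of 109 mug and meu genes 8 were higher and 27 lower.

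Single genes differed in this respect. The interaction was -2.63 for pfl8, -2.59 for eno102, -2.51 for ght3, -2.69 for mei2, -1.32 for mbx2, 1.41 for cnp3 and 1.10 for abp2, all called. It did not pass for sim4 (0.31, adjusted p = 0.0805, limma), meu27 (0.36, 0.316), num1 (0.05, 0.859), eta2 (0.50, 0.0509), ura4 (0.15, 0.356) or ste6 (0.21, 0.228). The same held for ams2 (0.21, 0.257), ase1 (0.14, 0.316), rmi1 (0.22, 0.0609), eng1 (0.77, 0.0536), the splicing gene snu66 (0.12, 0.485) and the wtf gene wtf17 (-0.48, 0.057). The interaction was -0.70 (0.0659) for mfm1. It was called with the opposite sign for meu13 (-0.31, adjusted p = 0.0488) and meu10 (-0.415, adjusted p = 0.0486). A direct test of whether the zfs1 effect differed between project 582 and the other 2 projects was called for 101 of all genes (3.48%), for 36 of the 127 higher genes (28.3%) and for 13 of the 156 lower genes (8.33%). The interaction uses the same zfs1-null and WT arrays as this test, so these shares are not independent of how the genes were called.

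**Figure D5:**
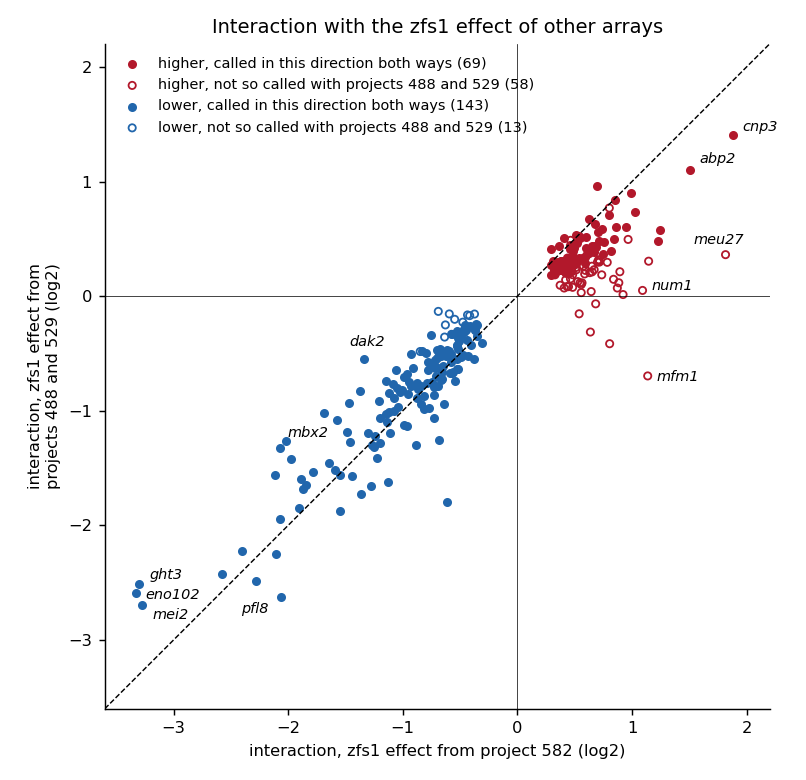
Interaction of the 283 called genes with the zfs1 effect of project 582 (horizontal) and of projects 488 and 529 (vertical), in log2. Filled points were called in the same direction both ways, which holds for 143 of 156 lower and 69 of 127 higher genes; mfm1 lies on the opposite side of 0.

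Some genes that answer zfs1 deletion had no called interaction. In projects 488 and 529 together 20 genes (0.69%) changed at least 2-fold, zfs1 among them, and these arrays did not enter the interaction. Of the 18 besides zfs1 and cbf12, 9 had a called interaction in project 582 (9.76% of all genes did), namely dak2, ght3, isp5, mei2, mfm1, mug14, pfl8, urg1 and urg2. The Zfs1 target arz1 (SPCC1494.03) did not, with signals of 1251, 1276 and 1322 in the double null, 1283, 1402 and 1312 in zfs1-null cells, 347, 438 and 363 in cbf12-null cells and 369, 365 and 390 in WT. Both strains without Zfs1 were high and both with Zfs1 low, whatever the state of cbf12 (interaction -0.08, 95% interval -0.36 to 0.20, adjusted p = 0.756, limma). The epimerase gene gal10 (-0.13, -0.53 to 0.27) also had an interval that excludes a 2-fold departure, whereas those of isp3 (-0.43, -1.14 to 0.27) and str3 (0.90, -0.07 to 1.87) did not. The glycerol phosphate dehydrogenase gene gut2 was at -0.04 (-0.47 to 0.40) in project 582 but at 0.85 (adjusted p = 0.000864, limma) with the zfs1 effect of projects 488 and 529. Among the called genes mug14 had 1 double-null array apart from the others (477, 1965 and 626 signal units), and without cbf12-null replicate 3 its interaction was -1.83 (adjusted p = 0.0506).

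By the gene order of the annotation, 51 of 226 called genes with a measured neighbour had a called neighbour (22.6%), against 254 of 2116 genes that were not called (12%). There were 27 adjacent pairs of called genes, 24 with the same direction and 3 with opposite directions. Besides cnp3 with abp2 and the 3 urg genes, they included pcm2 with mel1, qcr10 with rsv1, gst2 with alr1, mfr1 with fbp1, atf1 with isp4 and, on the higher side, mbx1 with ppr3 and art1. Adjacent genes can share transcripts or promoters, and their part in these pairs was not tested.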

How the data were processed

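The values deposited for every probe set are intensities on a linear scale, made with MAS5 per the submitters' processing notes. For MAS5 a version and scaling settings were not given in the sources used here. The mean of the deposited signals after trimming 2 percent at each end was 500.1 to 500.2 on each array, so a shift shared by most transcripts would not be seen. RNA was amplified before labelling, per the labels' protocols. Of 10928 probe sets, 2917 named 1 S. pombe gene, 20 that named several were left out, and 113 symbols were updated from an annotation of assembly ASM294v3, which left 2899 genes.

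Log2 signals of the 12 arrays were fitted with limma 3.58.1 in R 4.3.3 (4 strain means, intensity trend, two-sided tests, Benjamini-Hochberg adjustment over all 2899 genes, called at adjusted p below 0.05). Precision is limited by the number of arrays. The script was tested on simulated data. The genes, the 30 gene lists and the comparisons were chosen with earlier results of these data known. Of these lists, 5 genes put on by mistake were taken off after the values were seen, and none of them was called. The rule named zfs1 and cbf12, the 12 largest interactions of each direction, all flocculation genes, at most 4 called members of every further list or its 2 brightest, and the genes changed at least 2-fold in projects 488 and 529. Other list members and neighbouring genes were named after their values were seen. Promoter and transcript sequences were not analysed here, and the list of cell wall genes is not reported here. Alternatives covered scaling, filters, a pseudocount, probe sets, the variance model, the replicate number, other projects' arrays and each array left out.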

Additional observations from a re-analysis of the deposited data

Results flagged for a closer look

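The interaction itself is a difference between groups, the zfs1 effect differing with and without Cbf12, and it passed for 283 genes. Among the 24 genes with the largest interactions, the zfs1 effect with Cbf12 also differed between projects for 12, by a direct test (limma, adjusted p below 0.05, 101 of 2899 genes). The log2 zfs1 effect of project 582 minus that of projects 488 and 529 was 0.74 for eno102, 0.79 for ght3, 0.75 for mbx2 and 0.75 for urg2, which have lower interactions. It was -1.83 for mfm1, -1.45 for meu27, -1.04 for num1, -0.84 for sim4, -0.75 for mug133, -0.67 for mrpl39, -0.48 for cnp3 and -0.41 for abp2, which have higher interactions. In each of these 12 the difference lies in the direction that enlarges the interaction, and the interaction uses the same project 582 arrays.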

How the results depend on the processing

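Against 283 calls (127 higher, 156 lower), the count was 789 (445 higher, 344 lower) with array quality weights, whose estimation stopped before convergence, 607 (291 and 316) with the zfs1 effect of projects 488 and 529, and 585 (291 and 294) with that of all 3 projects. Without the genes of lowest mean signal 193 were called, 100 higher and 93 lower, so lower calls were no longer the larger part. Fewer tested genes reduce such counts, and why the split moved was not tested. Leaving out 1 array at a time gave 71 to 191 higher and 120 to 179 lower calls. The zfs1 effect was called for 183 to 544 genes with Cbf12 and 698 to 1070 without, the cbf12 effect for 490 to 1068 with Zfs1 and 120 to 446 without. The interaction of mfm1 turned to -0.70 and -0.20, and that of meu10 to -0.415 (called, adjusted p = 0.0486) and -0.082, with the zfs1 effect of projects 488 and 529 and of all 3 projects, and that of gut2, not called before, to 0.85 (adjusted p = 0.000864) with projects 488 and 529. Setting medians equal moved the median cbf12 effect with Zfs1 by 0.11 log2 units and its split to 434 higher and 272 lower, against 266 and 549. Quantile normalization gave 352 and 391 there, and 172 and 188 for zfs1 deletion with Cbf12, against 120 and 207. For cbf12 deletion without Zfs1 the split was 136 higher and 108 lower with medians equal and 107 and 87 with quantile normalization, against 94 and 167. Arrays with the same replicate number did not deviate together. The correlation of their deviations from the strain means had a median of 0.014 over 18 pairs (-0.301 to 0.306), against 0.011 over 36 pairs of different numbers, so the numbers were not used to pair arrays. With a replicate block 297 genes were called (133 and 164), and cig2 and cwf10 lost their calls. Of 70 named and called genes, 14 lost the call with projects 488 and 529, 10 with probe sets of both species, 9 with all 3 projects, 6 with medians equal and 5 with quantile normalization, and 49 kept it whichever array was left out.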

Other observations

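Some further genes among the 283 were picked after their values were seen and are given as values only, with nothing said of the groups they belong to. Other genes of the citric acid cycle and of complex III, such as lsc1 (-0.05), idp1 (-0.30) and cyt1 (-0.14), were not called. The isocitrate dehydrogenase genes idh1 and idh2 had interactions of -0.87 and -0.72, the citrate synthase gene cit1 -0.75, the fumarase gene fum1 -0.66, and the complex III genes qcr2, rip1 and qcr10 -0.72, -0.67 and -0.78. The idh2 signals were 1803, 1560 and 1611 in the double null, 1723, 1874 and 1820 in zfs1-null cells, 2496, 2438 and 2485 in cbf12-null cells and 1573, 1584 and 1756 in WT, so the cbf12-null strain alone stood apart. With the zfs1 effect of projects 488 and 529 the interaction of cit1 was -0.34 and that of idh1 -0.76. The autophagy gene atg8 was lower (-0.66), with 515, 517 and 575 in the double null, 600, 604 and 617 in zfs1-null cells, 985, 1004 and 983 in cbf12-null cells and 616, 742 and 795 in WT.

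On the higher side, and chosen in the same way, the nucleoporin genes nup37, nsp1 and pom152 had interactions of 0.71, 0.67 and 0.57, and the JmjC gene jmj4 had 0.71, while jmj1 (-0.19), jmj2 (-0.16) and jmj3 (0.39) were not called. The jmj4 signals were 1633, 1651 and 1518 in the double null, 1432, 1303 and 1244 in zfs1-null cells, 931, 985 and 903 in cbf12-null cells and 1431, 1220 and 1173 in WT, so the cbf12-null strain was lowest and the double null highest. With the zfs1 effect of projects 488 and 529 the interaction was 0.48 for jmj4 and 0.32 for nup37, the second not passing (adjusted p = 0.0748, limma).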
